A study of Homo sapiens with 12 samples.

Results

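The genes FN1, TNC, THBS1, THBS2, POSTN, SPARC, SPP1, VCAN, FBN1 and FAP were followed here as 1 group. They encode fibronectin, matricellular or microfibril proteins and the fibroblast protease FAP, and were taken by symbol. These 10 were among the 58721 genes of the count table, and all 10 were among the 21013 genes with enough reads to be tested. RNA sequencing was performed on EW8 and TC71 cells, which are Ewing sarcoma lines. Both lines carried the Tet-On 3G transactivator and a lentiviral TRE3G cassette from which doxycycline drives c-Jun and c-Fos from a single transcript. Cells were exposed to doxycycline at 2000 ng/ml or to the vehicle, DMSO, for 72 h. The 4 groups of 3 libraries were therefore EW8 vehicle, EW8 doxycycline, TC71 vehicle and TC71 doxycycline. Every library, vehicle included, came from transgene-carrying cells that had been selected with geneticin and puromycin. Doxycycline-treated cells without the cassette were not analysed here, so an effect of doxycycline itself and an effect of the transgenes cannot be told apart.

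The EWS-FLI1 fusion protein is the usual driver of Ewing sarcoma. AP-1 is the dimeric transcription factor that Jun and Fos proteins form. Fibronectin is a large secreted glycoprotein that cells assemble into fibrils through integrins, and these fibrils serve as a scaffold for other matrix proteins. Matricellular proteins such as tenascin-C, thrombospondins, periostin, osteopontin and SPARC are also secreted, but they mainly modulate adhesion and growth factor signals rather than bear load. Fibrillin microfibrils and large proteoglycans such as versican give the matrix elasticity and volume.

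The libraries held 42860665 to 60853649 gene counts, in which each mate of a read pair was counted on its own. JUN, the transcript of c-Jun, averaged 21.59 CPM (counts scaled to the TMM-normalised library size) in EW8 vehicle and 473.7 in EW8 doxycycline, and 20.74 and 755.5 in TC71. FOS, the transcript of c-Fos, averaged 36.76 and 1078 CPM in EW8, and 11.67 and 1580 in TC71. Reads of transgene and endogenous gene were not separable. TC71 vehicle replicate 1 stood apart from the other TC71 vehicle libraries. Its log2 values differed from theirs with an SD of 0.694 and 0.734 over genes, against 0.617 between those other libraries. The common dispersion of the fit, a measure of spread between replicates, was 0.0143 with all 12 libraries and 0.00792 without that one. TC71 results of FN1, TNC, THBS2 and FAP are therefore given below with and without it. Of the 10 genes SPP1, with its TC71 vehicle group at the detection floor, moved most. Its fitted TC71 response went from 3.93 to 6.43 on the log2 scale. That of VCAN, with TC71 vehicle also at the floor, went from 2.85 to 3.21. None of the 8 Ewing sarcoma markers was at the detection floor in any group. Their summed level was 3030 to 3080 CPM in EW8 vehicle, 2760 to 2830 in EW8 doxycycline, 2610 to 2870 in TC71 vehicle and 2380 to 2460 in TC71 doxycycline. With doxycycline 2 of these markers were lower in EW8 and 1 in TC71 (edgeR adjusted p under 0.05, log2 change beyond 1). By that rule no marker was higher, and 3.38% and 3.67% of all tested genes were lower. The marker medians were -0.62 in EW8 and -0.33 in TC71 on the log2 scale, against -0.03 and 0 over all tested genes.

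Promoter sequence upstream of the start site is shown for 3 of the genes. FN1 and POSTN were the 2 of 9 matched members whose promoter window held an AP-1 or CRE motif, and TNC had the largest response of the members above the floor in both lines. The windows were 250 bases before to 50 after the start in the RefSeq table on GRCh38.p14, of which only the part outside the annotated gene is printed, 5′ to 3′ on the gene's strand. Both strands were searched for the AP-1 motif TGANTCA, the CRE motif TGACGTCA and the GGAA repeat GGAAGGAA, and capitals mark matches. Neither of the first 2 motifs contains the other, and a match is a description of letters only. The stretches lie at chr2:215436173-215436318 for FN1, chr9:115118258-115118407 for TNC and chr13:37598845-37599018 for POSTN, all 3 on the minus strand.
FN1: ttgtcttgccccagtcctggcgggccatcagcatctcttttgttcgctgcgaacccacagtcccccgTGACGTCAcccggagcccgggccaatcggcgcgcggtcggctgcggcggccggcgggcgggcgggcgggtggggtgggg
TNC: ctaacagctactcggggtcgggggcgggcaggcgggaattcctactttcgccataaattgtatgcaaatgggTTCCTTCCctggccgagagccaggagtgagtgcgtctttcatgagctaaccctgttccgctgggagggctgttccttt
POSTN: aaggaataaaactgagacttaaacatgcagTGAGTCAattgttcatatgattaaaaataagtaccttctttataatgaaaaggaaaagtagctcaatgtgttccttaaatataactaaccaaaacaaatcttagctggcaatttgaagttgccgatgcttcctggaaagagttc

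In FN1 the match TGACGTCA began at position -183 from the start site, and 1.85% of 35116 windows held that motif. In POSTN a match to the AP-1 motif began at position -220, and 7.71% of windows held that motif. TNC held neither of these motifs. Its window held TTCCTTCC, which is GGAAGGAA on the other strand, at position -178, as did 3.67% of windows on either strand. The windows of THBS1, THBS2, SPARC, SPP1, VCAN and FBN1 held no match to any of the 3 motifs, and FAP was not matched in the table.

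Fibronectin transcript rose in both lines, from very different starting levels. FN1 (ENSG00000115414.18, chromosome 2, 215360440 to 215436172, minus strand of hg38) was measured at 764.1, 793.3 and 808 CPM in EW8 vehicle and at 2244, 2424 and 2297 CPM in EW8 doxycycline. In TC71 it stood at 41.15, 75.9 and 77.15 CPM under vehicle and at 1830, 1984 and 2011 CPM under doxycycline. All 3 doxycycline libraries were above all 3 vehicle libraries in each line, and the lowest FN1 value of the series was in TC71 vehicle replicate 1. FN1 rose 2.94-fold in EW8 (log2 1.56, SE 0.14, edgeR adjusted p = 6.43e-08). In TC71 it rose 30-fold (log2 4.91, SE 0.17, adjusted p = 3.44e-14). Without TC71 vehicle replicate 1 the TC71 value for FN1 was 4.59. FN1 is among the genes whose proteins the study followed in these lines, so its direction is not independent evidence.

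The lines differed widely in FN1 before induction. Under vehicle FN1 was lower in TC71, with a TC71 minus EW8 log2 difference of -3.61 (95% interval -3.94 to -3.27), or -3.25 without TC71 vehicle replicate 1. Under doxycycline the difference was -0.26 (95% interval -0.56 to 0.04, adjusted p = 0.124), although every TC71 library was below every EW8 library. That small difference in FN1 passed the adjusted p of 0.05 without TC71 vehicle replicate 1 (-0.27, adjusted p = 8.73e-07). The TC71 response exceeded the EW8 response by 3.35 on the log2 scale (SE 0.21), or 2.98 without that library.

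**Figure D1:**
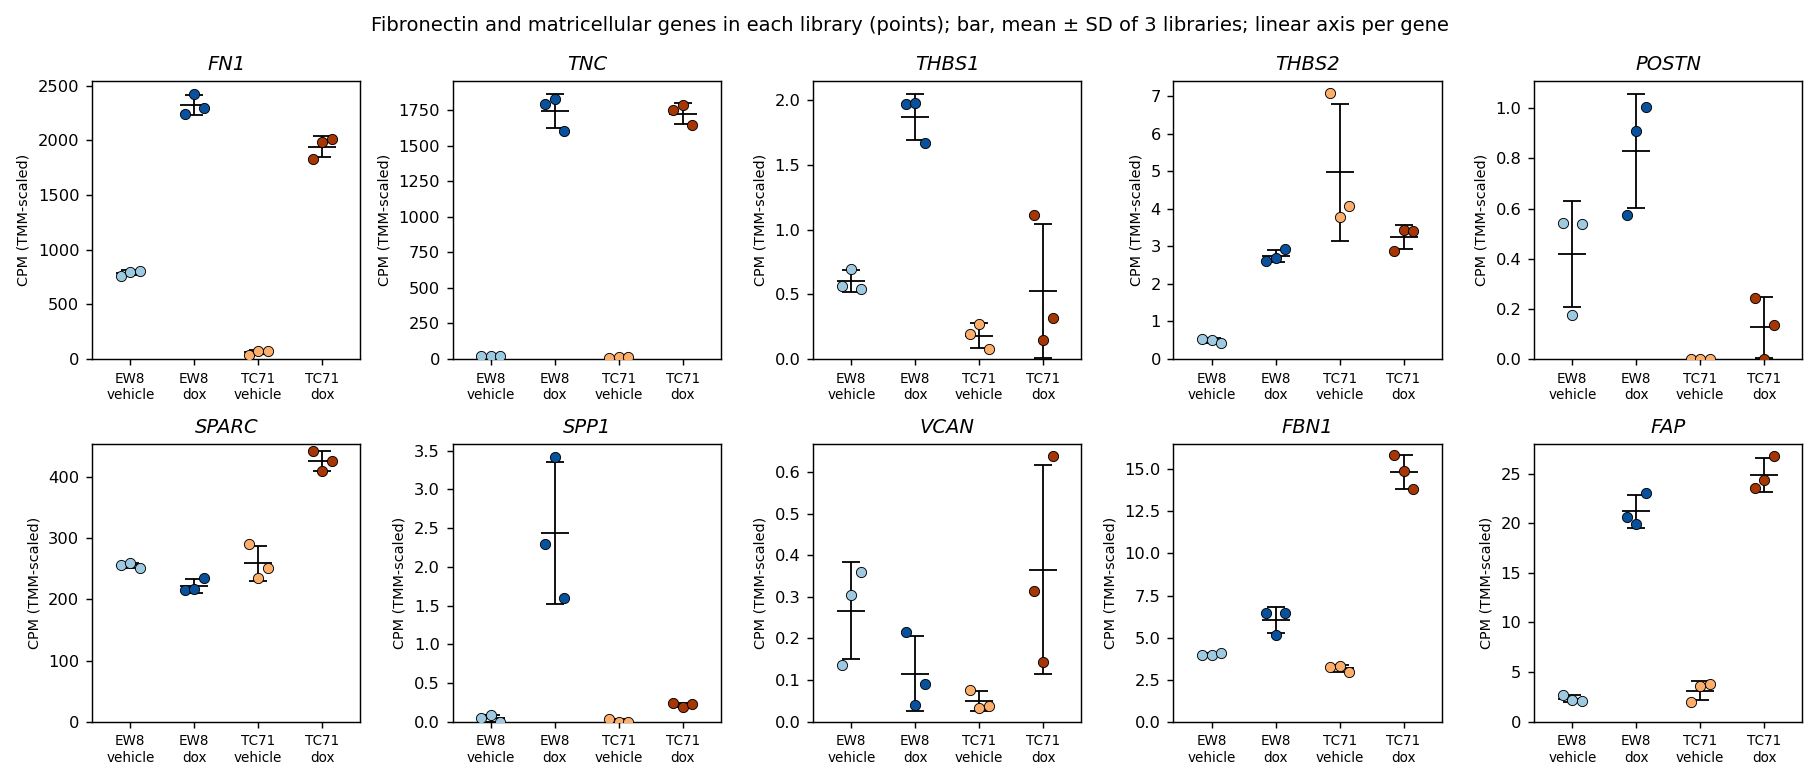
TMM-scaled CPM (linear axis from 0, one per gene) of the 10 genes in each of the 12 libraries, in the groups EW8 and TC71 with vehicle or doxycycline (dox). Points are libraries and bars the mean ± SD of 3 libraries. FN1, TNC and FAP were higher in all 3 doxycycline libraries than in any vehicle library of both lines, whereas THBS2 was higher in all 3 of EW8 and lower in all 3 of TC71.

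Tenascin-C, a hexameric glycoprotein of developing and wounded tissue, had the largest response of the members that were above the floor in all 4 groups. TNC (ENSG00000041982.15, chromosome 9, 115019578 to 115118257, minus strand) was at 22.15, 17.81 and 20.89 CPM in EW8 vehicle and at 1790, 1828 and 1603 CPM in EW8 doxycycline. In TC71 its level was 9.986, 16.31 and 15.08 CPM under vehicle and 1748, 1782 and 1643 CPM under doxycycline. The groups were far apart in each line, and the doxycycline libraries of the lines overlapped.

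TNC rose 85.8-fold in EW8 (log2 6.42, SE 0.14, adjusted p = 1.28e-16). In TC71 it rose 125-fold (log2 6.96, SE 0.15, adjusted p = 3.71e-17). Under doxycycline the lines differed in TNC by -0.01 on the log2 scale, with a 95% interval of -0.25 to 0.22. The response in TC71 exceeded that in EW8 by 0.54 (SE 0.17, adjusted p = 0.0289), under the fold limit of 1. Without TC71 vehicle replicate 1 the TC71 response was 6.70 and the difference between the lines 0.23 (adjusted p = 0.0708). That difference passed the threshold in only some of the alternatives run, with an adjusted p of up to 0.209 without EW8 doxycycline replicate 3. Of the exon bases of TNC, 1.34% lie in exons of DELEC1 on the other strand. Counting used no strand, and such shared bases were not counted for either gene.

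SPARC, a collagen-binding glycoprotein, was abundant in every library and moved little. SPARC (ENSG00000113140.10, chromosome 5, 151661096 to 151687165, minus strand) stood at 256.6, 259.8 and 252 CPM in EW8 vehicle and at 215.3, 216.8 and 235 CPM in EW8 doxycycline. In TC71 it stood at 290.2, 234.5 and 252.3 CPM under vehicle and at 443.2, 410.7 and 426.5 CPM under doxycycline. The doxycycline libraries were below the vehicle libraries in EW8 and above them in TC71, without overlap.

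For SPARC the log2 fold change in EW8 was -0.20 (SE 0.07, adjusted p = 0.018). In TC71 it was 0.72 (SE 0.07, adjusted p = 4.81e-08), and both lay under the fold limit. The EW8 value missed the threshold without EW8 vehicle replicate 2 or 3, EW8 doxycycline replicate 1 or 2, or TC71 vehicle replicate 3, with an adjusted p of up to 0.188. It also missed it with at least 10 counts required in every library and with halved counts. The responses differed by 0.92 (SE 0.09, adjusted p = 1.05e-06), also under that limit. The vehicle levels of SPARC did not differ detectably between the lines (log2 difference 0.02, 95% interval -0.12 to 0.16). Exons of CLMAT3 on the other strand share 7.89% of the SPARC exon bases.

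The thrombospondins, secreted proteins that bind CD36 and CD47 and restrain angiogenesis, were low in these lines, and the response of THBS2 differed between them. THBS2 (ENSG00000186340.15, chromosome 6, 169215780 to 169254044, minus strand) was at 0.5413, 0.5012 and 0.4311 CPM in EW8 vehicle and at 2.613, 2.688 and 2.923 CPM in EW8 doxycycline. In TC71 its level was 7.065, 3.768 and 4.076 CPM under vehicle and 2.885, 3.441 and 3.413 CPM under doxycycline. All doxycycline libraries were higher than the vehicle libraries in EW8 and all were lower in TC71, where vehicle replicate 1 was the highest of the series.

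THBS2 rose by 2.48 (SE 0.28, adjusted p = 7.81e-07) on the log2 scale in EW8. In TC71 the change was -0.61 (SE 0.24, adjusted p = 0.0416), within the fold limit, and -0.35 (adjusted p = 0.235) without TC71 vehicle replicate 1. The TC71 value of THBS2 also missed the threshold without any 1 of the TC71 doxycycline libraries, in limma voom, without the expression filter, with TC71 fitted on its own and with a replicate block. The TC71 response minus the EW8 response was -3.09 (SE 0.37, adjusted p = 6.21e-06), and -2.88 without TC71 vehicle replicate 1. Under vehicle THBS2 was higher in TC71 by 3.34 (SE 0.28, 10.1-fold), and under doxycycline the lines differed by 0.25 (95% interval -0.26 to 0.75).

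THBS1 (ENSG00000137801.10, chromosome 15, 39581079 to 39599466, plus strand) held 25, 32 and 30 counts in EW8 vehicle and 110, 100 and 73 in EW8 doxycycline. In TC71 it held 10, 17 and 4 counts under vehicle and 46, 6 and 14 under doxycycline. The EW8 groups did not overlap, while the TC71 groups did. THBS1 rose by 1.64 on the log2 scale in EW8 (SE 0.54, adjusted p = 0.0187). Its TC71 value of 1.5 (SE 0.61, adjusted p = 0.0541) missed the threshold.

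At these counts the THBS1 result depended on single libraries. In EW8 the adjusted p was 0.057 without vehicle replicate 1 and 0.058 without vehicle replicate 3. In TC71 the log2 fold change of THBS1 was 0.34 without doxycycline replicate 1, which held most of the counts. It passed the threshold without vehicle replicate 2, without doxycycline replicate 2 or 3, and in DESeq2 (adjusted p = 0.0354). It also passed without the expression filter (edgeR adjusted p = 0.022). Exons of THBS1-AS1 and FSIP1 share 9.38% of its exon bases.

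Osteopontin was at the detection floor in both vehicle groups and periostin in TC71 vehicle, and both were near it in TC71 doxycycline. Counts up to 6 per library, or 3 read pairs, were treated as the floor, which corresponded to 0.0966 to 0.145 CPM. These limits cover counting error only. SPP1 (osteopontin, an integrin and CD44 ligand, ENSG00000118785.13, chromosome 4, 87975650 to 87983426, plus strand) held 2, 4 and 0 counts in EW8 vehicle and 128, 173 and 70 in EW8 doxycycline. In TC71 it held 2, 0 and 0 counts under vehicle and 10, 8 and 10 under doxycycline. Both responses were without overlap, and SPP1 was higher in every EW8 doxycycline library than in any TC71 one.

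With doxycycline, EW8 had at least 18-fold more SPP1 (adjusted p = 2.36e-06). TC71 had at least 1.89-fold more (adjusted p = 0.00198). These bounds use the highest floor among the vehicle libraries of the line. Under doxycycline SPP1 was lower in TC71 by a log2 difference of -3.45 (SE 0.58, adjusted p = 4.69e-05). The difference of the responses was not detectable at this depth (adjusted p = 0.55).

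POSTN (periostin, ENSG00000133110.14, chromosome 13, 37562583 to 37598844, minus strand) binds integrins and promotes collagen assembly. It held 24, 8 and 30 counts in EW8 vehicle and 32, 46 and 44 in EW8 doxycycline. In TC71 it held 0, 0 and 0 counts under vehicle and 10, 0 and 6 under doxycycline. The EW8 groups did not overlap, whereas 1 TC71 doxycycline library held none, as did all vehicle libraries.

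The POSTN log2 fold change in EW8 was 0.98 (SE 0.73, 95% interval -0.58 to 2.54, adjusted p = 0.316). In TC71 POSTN was called higher (adjusted p = 0.00748), but its doxycycline mean of 0.1263 CPM lay below the floor of that group (0.137 to 0.145 CPM), so no fold is given. It missed the threshold in limma voom (adjusted p = 0.0721). Under vehicle it was at least 3.59-fold higher in EW8 than in TC71 (adjusted p = 0.000245), and under doxycycline it remained lower in TC71 by a log2 difference of -2.69 (SE 0.82, adjusted p = 0.00938).

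Versican, a large chondroitin sulfate proteoglycan that binds hyaluronan, was also near the floor. VCAN (ENSG00000038427.15, chromosome 5, 83471465 to 83582303, plus strand) held 6, 14 and 20 counts in EW8 vehicle and 12, 2 and 4 in EW8 doxycycline. In TC71 it held 4, 2 and 2 counts under vehicle and 13, 6 and 28 under doxycycline. The EW8 groups overlapped and the TC71 groups did not.

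The VCAN log2 fold change in EW8 was -1.18 (SE 0.80, 95% interval -2.86 to 0.50, adjusted p = 0.258). In TC71 VCAN was at least 3.14-fold higher (adjusted p = 0.0115), but its adjusted p was 0.0527 without TC71 vehicle replicate 2 and 0.0917 without TC71 doxycycline replicate 3. The difference of the responses passed the threshold (adjusted p = 0.0214), and did not without EW8 vehicle replicate 3, EW8 doxycycline replicate 2 or 3, TC71 vehicle replicate 2 or 3, or TC71 doxycycline replicate 3 (adjusted p 0.0576 to 0.0927). Under vehicle VCAN was called lower in TC71, at least 2.29-fold (adjusted p = 0.0226). That call was lost without EW8 vehicle replicate 2 or 3 or TC71 vehicle replicate 2 or 3 (adjusted p 0.0575 to 0.0851). Exons of VCAN-AS1 share 3.05% of its exon bases.

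Fibrillin-1, the main structural protein of microfibrils, rose more in TC71. FBN1 (ENSG00000166147.13, chromosome 15, 48408306 to 48645849, minus strand) was at 3.97, 3.966 and 4.096 CPM in EW8 vehicle and at 6.48, 5.178 and 6.486 CPM in EW8 doxycycline. In TC71 its level was 3.246, 3.317 and 2.95 CPM under vehicle and 15.85, 14.91 and 13.83 CPM under doxycycline. All doxycycline libraries were higher in both lines.

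FBN1 changed by 0.59 on the log2 scale in EW8 (SE 0.14, adjusted p = 0.00217), under the fold limit. In TC71 it rose by 2.23 (SE 0.14, adjusted p = 3.12e-10), or 4.69-fold. The TC71 response exceeded the EW8 response by 1.64 (SE 0.20, adjusted p = 8.79e-06). Under doxycycline FBN1 was 2.46-fold higher in TC71, while the vehicle difference of -0.34 did not pass the threshold (95% interval -0.64 to -0.03, adjusted p = 0.0513).

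FAP, a membrane serine protease that marks activated fibroblasts, rose in both lines. FAP (ENSG00000078098.13, chromosome 2, 162170684 to 162245151, minus strand) stood at 2.707, 2.223 and 2.066 CPM in EW8 vehicle and at 20.58, 19.9 and 23.04 CPM in EW8 doxycycline. In TC71 it stood at 2.005, 3.575 and 3.785 CPM under vehicle and at 23.54, 24.3 and 26.76 CPM under doxycycline. No doxycycline library overlapped the vehicle range, and TC71 vehicle replicate 1 was again the lowest.

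The FAP fold change was 9.08 in EW8 (log2 3.19, SE 0.19, adjusted p = 8.94e-11) and 7.97 in TC71 (log2 2.99, SE 0.18, adjusted p = 1.11e-10). The difference of the responses was -0.20 (95% interval -0.72 to 0.33, adjusted p = 0.671). Without TC71 vehicle replicate 1 it was -0.56 (adjusted p = 0.0281), under the fold limit, and the TC71 value was 2.68. Under vehicle the TC71 minus EW8 difference in FAP was 0.43 (adjusted p = 0.062), and 0.77 (adjusted p = 6.93e-05) without that library, both under the fold limit. FAP, like FN1, was followed as a protein in the study. Exons of ENSG00000236841 on the other strand share 9.11% of the FAP exon bases.

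A gene was called at an edgeR adjusted p under 0.05 and a log2 fold change beyond 1. In EW8, 6 of the 10 genes were called higher (FN1, TNC, THBS1, THBS2, SPP1 and FAP), where 11.4% of all tested genes were called higher. In TC71, 7 were called higher (FN1, TNC, POSTN, SPP1, VCAN, FBN1 and FAP, with POSTN below the floor), against 12.3% of all tested genes. The TC71 vehicle libraries of POSTN, SPP1 and VCAN were all at the floor. With TC71 fitted on its own these genes were not tested. In that fit 4 of 7 tested members were called higher (FN1, TNC, FBN1 and FAP). With at least 10 counts required in every library, 4 of 6 were. The 4 genes called higher in both lines were FN1, TNC, SPP1 and FAP, where 7.44% of all tested genes were so called. No member was called lower by edgeR, DESeq2 or limma voom, where edgeR called 3.38% (EW8) and 3.67% (TC71) of all tested genes lower. An unadjusted p under 0.05 and a lower level were seen for 1 member in each line, SPARC in EW8 and THBS2 in TC71.

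The median log2 fold change of the 10 genes was 1.60 in EW8, against -0.03 over all tested genes. In TC71 it was 2.92, or 1.57 with the floor-limited genes at their lower bound, against 0 over all tested genes. Of the 10 responses, 4 differed between the lines (FN1, VCAN and FBN1 larger in TC71, THBS2 lower), where 7.05% of all tested genes did (4.18% higher and 2.87% lower in TC71). Without TC71 vehicle replicate 1 the counts of members stayed at 6, 7 and 4. As each library was left out, these counts ran from 5 to 6, 7 to 8 and 3 to 5. Nothing in the labels states that libraries came from separate cultures, so p-values measure only the spread between these libraries.

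**Figure D2:**
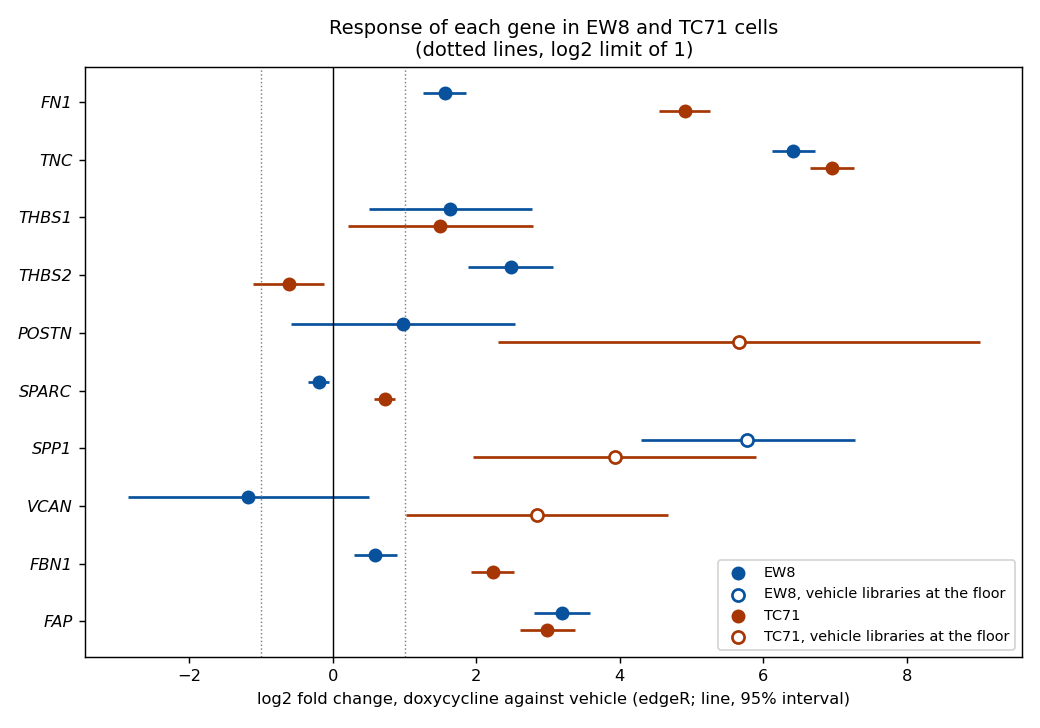
Log2 fold change of doxycycline against vehicle for each gene in EW8 (blue) and TC71 (dark red), with the 95% interval from edgeR as a line. Open points have all vehicle libraries at the floor, so their fitted size is not a bound. TNC lay at 6.42 and 6.96, while THBS2 lay at 2.48 in EW8 and -0.61 in TC71.

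Levels were compared between genes as CPM per kb of exon. In EW8 vehicle the order was SPARC (53.0 ± 0.808, SD, n = 3), FN1 (45.5 ± 1.29), TNC (2.10 ± 0.232), FAP (0.333 ± 0.0477) and FBN1 (0.250 ± 0.00459), with no overlap between neighbours. THBS2, POSTN and THBS1 followed at 0.0766, 0.0765 and 0.0655 with overlapping libraries, and SPP1 and VCAN, which also overlapped, were lowest. In EW8 doxycycline TNC came first at 181 ± 12.5, then FN1 at 134 ± 5.36 and SPARC at 46.0 ± 2.27, again without overlap.

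In TC71 vehicle SPARC led at 53.6 ± 5.89 CPM per kb, far above FN1 at 3.74 ± 1.18 and TNC at 1.43 ± 0.348. TNC overlapped there with THBS2 at 0.775 ± 0.284. In TC71 doxycycline the order at the top was as in EW8 doxycycline, with TNC at 179 ± 7.48, FN1 at 112 ± 5.66 and SPARC at 88.3 ± 3.37 CPM per kb. FAP at 3.55 ± 0.240 and FBN1 at 0.926 ± 0.0630 came next, without overlap. Among all tested genes ranked per kb, TNC went from percentile 50.8 to 99 in EW8 and from 46.7 to 99 in TC71, and FN1 from 95.2 to 98.6 and from 60.7 to 98.2.

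**Figure D3:**
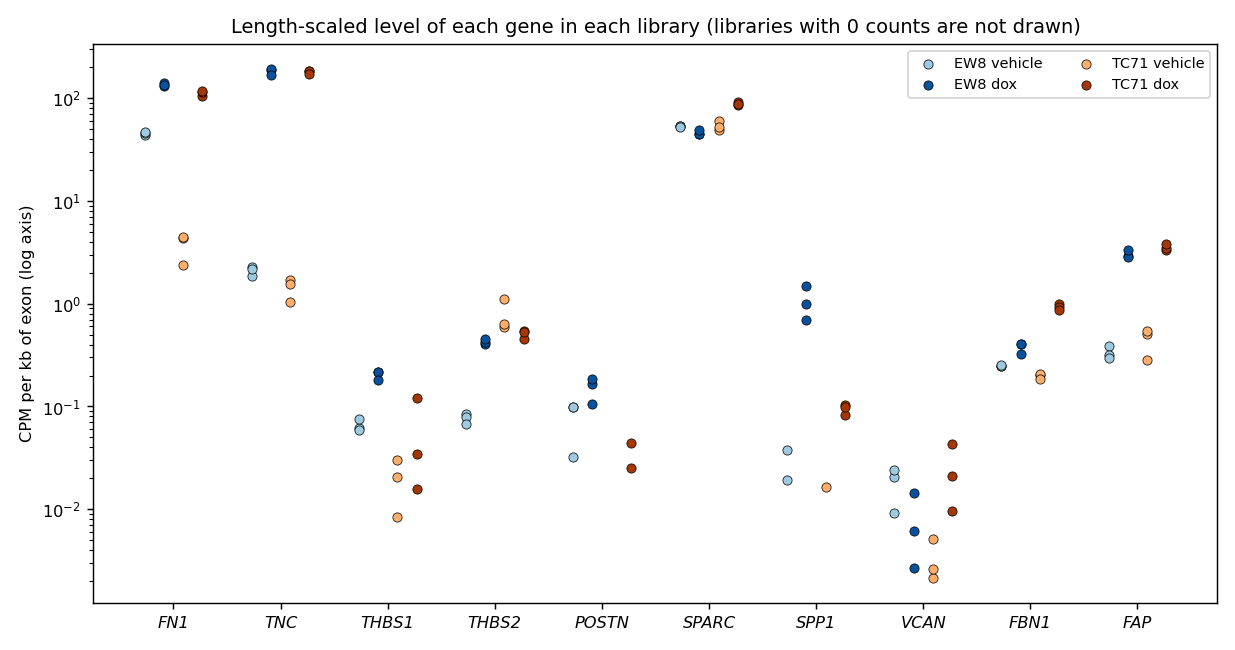
CPM per kb of exon (log axis) of each gene in each library, by group. Libraries with 0 counts are not drawn, which leaves out some libraries for POSTN and SPP1, including all 3 of TC71 vehicle for POSTN. By group mean, TNC, FN1 and SPARC were the 3 highest genes in every group.

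Summed over the 10 genes, the level was 1073 ± 19.4 CPM (SD, n = 3) in EW8 vehicle and 4320 ± 169 CPM in EW8 doxycycline. In TC71 the sum was 349 ± 9.85 CPM under vehicle and 4137 ± 78.0 CPM under doxycycline. FN1 made up 72.7% to 74.2% of the sum in EW8 vehicle and 11.6% to 22.5% in TC71 vehicle, where SPARC made up 69.4% to 82.0%. With doxycycline FN1 made up 52.4% to 55.1% in EW8 and 45% to 48.7% in TC71, and TNC 38.4% to 41.8% and 39.8% to 43.0%. The other 7 genes together never exceeded 3.57% of the sum in any library. In bulk RNA, more transcript in every cell and more cells with the transcript cannot be told apart.

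**Figure D4:**
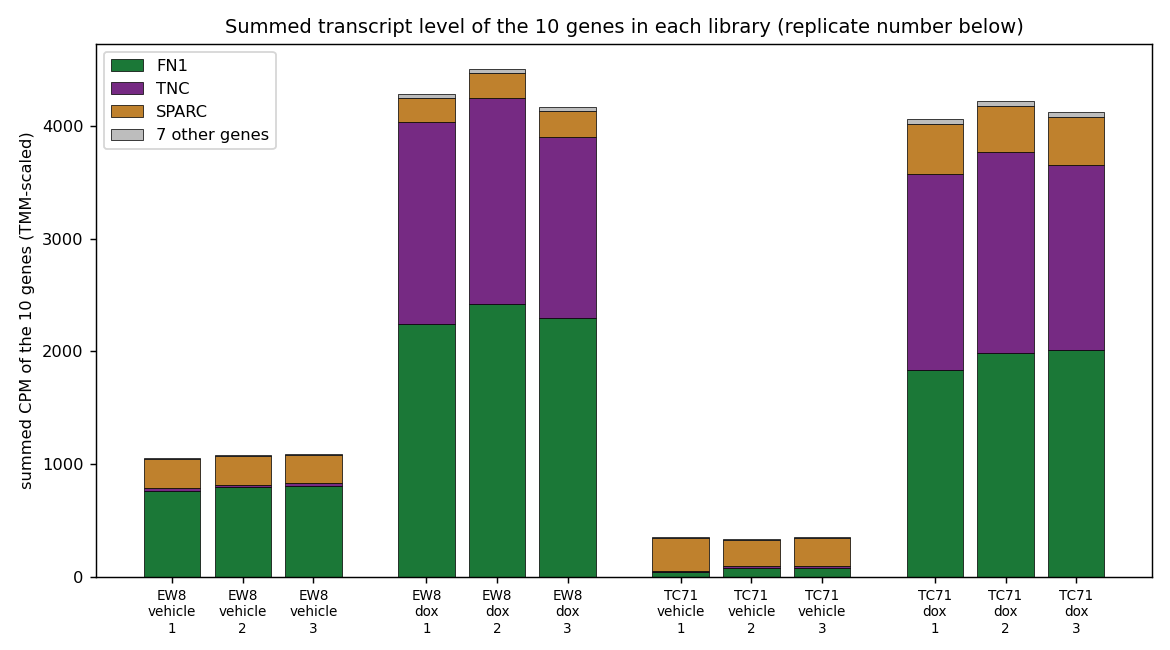
Summed TMM-scaled CPM of the 10 genes in each of the 12 libraries, stacked by gene, with group and replicate below each bar. The vehicle bars averaged 1073 CPM in EW8 and 349 CPM in TC71, and the doxycycline bars 4320 and 4137 CPM.

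Between the lines, 5 of the 10 genes were called different under vehicle, where 30.6% of all tested genes were (11.6% higher and 18.9% lower in TC71). FN1, THBS1, POSTN and VCAN were lower in TC71 and THBS2 was higher. Under doxycycline 4 were called different, where 31% of all tested genes were (12.6% higher and 18.4% lower). THBS1 (-1.83), POSTN and SPP1 were lower in TC71 and FBN1 was higher. The call of THBS1 under vehicle (log2 difference -1.69, adjusted p = 0.021) was lost without EW8 vehicle replicate 2 (adjusted p = 0.0576) and without TC71 vehicle replicate 3 (0.0852). The VCAN call was lost without either of these too, so that 3 of the 10 genes were then called different under vehicle. The log2 difference of THBS1 under doxycycline was -3 without TC71 doxycycline replicate 1.

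Other matricellular genes were called mostly in the higher direction, as were called genes at large. Of all genes called, 77.2% in EW8 and 77% in TC71 were higher. Of 24 genes listed, 13 were tested, and 7 were called higher and 1 lower in each line. Of all tested genes, 11.4% were called higher and 3.38% lower in EW8, and 12.3% and 3.67% in TC71. The list median log2 fold change was 1.02 in EW8 and 2.15 in TC71 (0.89 with floor-limited genes at their bound). Over all tested genes it was -0.03 and 0. TGFBI, an integrin-binding protein that TGF-beta induces, averaged 0.163 ± 0.0655 CPM in EW8 vehicle and 163 ± 6.12 CPM in EW8 doxycycline. It rose there by 9.93 on the log2 scale, and by 9.68 to 10.16 as each library was left out. The EW8 vehicle libraries held at most 10 TGFBI counts, close to the floor, so the size of this rise is uncertain. In TC71 TGFBI was at least 4870-fold higher, at 567 ± 20.5 CPM under doxycycline. CCN3, a cysteine-rich integrin ligand, rose by 3.84 in EW8 and 2.15 in TC71 on the log2 scale. TNR, a tenascin of the nervous system, had at least 17.8-fold and 5.84-fold more transcript in the respective lines, and TNXB rose by 2.86 and 4.93. TNXB has a near-identical partial copy, so its counts are uncertain.

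Microfibril and elastic fibre genes moved in both directions. All 18 were tested, and 6 were called higher and 3 lower in each line. Of all tested genes, 11.4% were higher and 3.38% lower in EW8, and 12.3% and 3.67% in TC71. The list medians were 0.01 in EW8 and 0.14 in TC71 (0 at the bound), against -0.03 and 0 over all tested genes. The latent TGF-beta binding proteins LTBP1 and LTBP2 rose by 1.33 and 1.81 in EW8, and by 2.39 and 3.91 in TC71. EMILIN2 rose by 2.81 and 1.25, and MFAP5 rose by 4.27 in EW8, or 5.03 without EW8 vehicle replicate 3. In TC71 MFAP5 was at the floor under vehicle and doxycycline. EFEMP1 fell by 2.41 in EW8 and was not detected in TC71. MFAP4 fell by 1.64 in TC71, and its log2 fold change in EW8 was -0.11 (adjusted p = 0.702).

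Of 7 hyalectans and link proteins, the relatives and partners of versican, 4 were tested. ACAN, the cartilage proteoglycan, reached at least 3.67 times its vehicle level with doxycycline in EW8. In TC71 ACAN was at the floor under vehicle and doxycycline. HAPLN1, a link protein, fell by 1.46 in EW8 on the log2 scale and had no count in TC71. In TC71 BCAN was called higher, but its mean of 0.0789 CPM was under the floor. The BCAN log2 fold change in EW8 was -0.27 (edgeR adjusted p = 0.846). The BCAN call was lost in limma voom (adjusted p = 0.145), without TC71 doxycycline replicate 2 (0.197) and without any 1 of the TC71 vehicle libraries (0.0521 to 0.0711). The list median was -0.59 in EW8 and 1.87 in TC71 (0 at the bound).

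Of 16 fibronectin receptor and assembly genes 15 were tested. In EW8 7 were called higher and 1 lower, where 11.4% and 3.38% of all tested genes were. In TC71 8 were called higher, where 12.3% of all tested genes were. The medians were 1.48 in EW8 (0.66 at the bound) and 1.55 in TC71, against -0.03 and 0 over all tested genes. The syndecans SDC4 and SDC1, heparan sulfate coreceptors, rose by 3.95 and 2.51 in EW8 and by 3.74 and 6 in TC71. ITGB3, a subunit of the vitronectin and fibronectin receptor, rose by 2.83 and 2.97. The ITGB3 value was 3.48 without EW8 vehicle replicate 3 and 3.72 without TC71 vehicle replicate 2. ITGB6 was at least 5.31-fold higher in TC71, while in EW8 it was called higher with a mean of 0.112 CPM under doxycycline, below the floor.

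Of 7 thrombospondin, osteopontin and tenascin receptors, 2 were called higher in EW8 and 5 in TC71, against 11.4% and 12.3% of all tested genes. The list medians were 0.54 and 1.78, against -0.03 and 0 over all tested genes. CD44, a receptor for hyaluronan and osteopontin, had no count in EW8 vehicle and averaged 10.9 ± 0.437 CPM in EW8 doxycycline, at least 80.8-fold higher. In TC71 CD44 went from 0.0429 ± 0.0744 to 39.8 ± 2.16 CPM. All of its vehicle counts lay under 10, and the log2 fold change of 9.62 ranged from 9.02 to 13.9 as each library was left out, lowest without TC71 vehicle replicate 1 and highest without TC71 vehicle replicate 2. LRP1, an endocytic receptor, rose by 1.08 and 1.78. CD36 and PTPRZ1 rose in TC71 by 3.55 and 2.44, while their log2 fold changes in EW8 were 1.08 (adjusted p = 0.315) and -0.66 (adjusted p = 0.00979, under the fold limit).

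Of 8 serine proteases related to FAP, 6 were tested and DPP4, the nearest relative, was the single one called, higher in both lines. It rose by 1.46 (SE 0.07) in EW8 and 4.22 (SE 0.10) in TC71. The list medians were 0.29 and 0.19, against -0.03 and 0 over all tested genes, of which 11.4% and 12.3% were called higher.

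**Figure D5:**
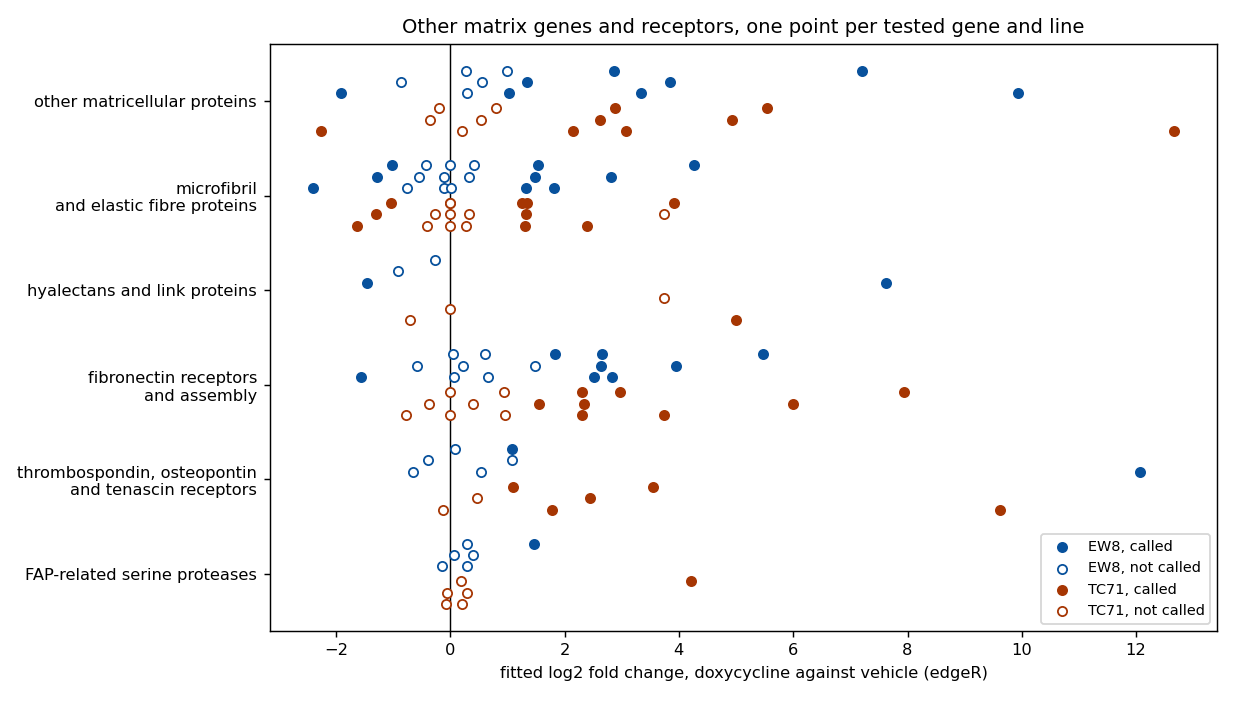
Fitted log2 fold change of doxycycline against vehicle for every tested gene of the 6 related lists, in EW8 (blue) and TC71 (dark red). Filled points were called, and a gene with no count in a line lies at 0. The microfibril list spread to both sides of 0, with 6 genes called higher and 3 lower in each line.

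Genes that mark other cell types were read in the same libraries. Of all tested genes, 11.4% were called higher and 3.38% lower in EW8, and 12.3% and 3.67% in TC71. Of 10 fibroblast markers, 1 was called higher and 2 lower in EW8, and 2 higher and 3 lower in TC71. The fibroblast marker medians were -0.15 in EW8 and 0.1 in TC71 on the log2 scale, against -0.03 and 0 over all tested genes. The summed fibroblast marker level was 171 to 187 CPM in EW8 vehicle and 148 to 159 in EW8 doxycycline. In TC71 that sum was 277 to 320 CPM under vehicle and 294 to 305 under doxycycline. Of 3 endothelial markers, 2 were called higher in EW8 and 3 in TC71. Their sum moved with doxycycline from 7.22 to 8.48 up to 36.1 to 43.7 CPM in EW8, and from 0 to 0.0388 up to 3.75 to 4.61 CPM in TC71. Of 3 epithelial markers, 2 were tested, and 1 was called higher in EW8 and 2 in TC71. The epithelial sum moved from 0.934 to 1.67 up to 41.0 to 52.7 CPM, and from 0.267 to 1.53 up to 66.3 to 84.5 CPM. Of 4 leukocyte markers, CD3E was at the floor throughout and PTPRC in TC71, and the sum was 59.8 to 69.2 and 73.3 to 78.1 CPM in EW8 and at most 0.558 CPM in TC71. The part of other cell types in the results above was not tested.

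The genes with the pattern most like FN1 over the 4 group means were LGI2, SHISA4, PODXL, PLEKHG5 and RAC2. Likeness was the root-mean-square difference of centred log2 CPM among 20883 genes, and ranged from 0.145 for LGI2 to 0.341 for RAC2. LGI2 averaged 15.1 and 44.5 CPM in EW8 and 1.45 and 45.8 CPM in TC71, under vehicle and doxycycline. Among the members the closest pair was SPARC and FBN1 at 0.595. That minimum was taken over far fewer genes, so it cannot be set against the values above.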

How the data were processed

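RNA from 12 libraries was sequenced by the authors, mapped to hg38 with STAR after FastQC, and deposited as whole-number counts per gene. Per the file headers, featureCounts 2.0.1 was run on the GENCODE 29 annotation without strand, although the library kit was a stranded one. Mates were counted separately, and reads that overlapped several genes or mapped to several places were not counted. Gene IDs were matched to symbols for 58252 of 58721 genes (99.2%). The exon length column was used to give CPM per kb. The deposited counts were fitted with edgeR 4.0.16 (R 4.3.3) in 1 quasi-likelihood model of all 4 groups, with TMM scaling and the default expression filter, which left 21013 genes and 99.95% of counts. Benjamini-Hochberg adjustment ran over all of these genes. Calls needed an adjusted p below 0.05 together with a log2 change beyond 1 in size. For each line doxycycline was compared with vehicle, then the responses with each other, and TC71 with EW8 under either treatment. SEs are derived from the F statistic, and intervals are 95%. A group with at most 6 counts in each library was taken as at the floor, and folds against it as lower bounds. Groups were taken from the sample titles.

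The 10 genes, the gene lists and the tests were chosen with earlier results of these data known. Beside the 10 members, JUN and FOS, the text names up to 3 called genes with the largest change per list and line, and the 5 genes most like FN1. A list gene so named for a line is also given for the other. Alternatives were RLE or library-size scaling, DESeq2 1.42.0, limma 3.58.1 voom, other filters, no fold limit, separate fits of the lines, halved counts, a replicate block and leaving out each library. The pipeline was tested on simulated data. Promoter windows are from RefSeq on GRCh38.p14.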

Additional observations from a re-analysis of the deposited data

Results flagged for a closer look

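Several responses to doxycycline differed between the lines by the interaction term of the edgeR fit (TC71 minus EW8, log2 scale, adjusted p under 0.05). Among the 10 genes the difference was 3.35 for FN1, 0.54 for TNC, -3.09 for THBS2, 0.92 for SPARC, 4.03 for VCAN and 1.64 for FBN1. The value for VCAN rests on libraries at or near the floor, and those for TNC and SPARC are under the fold limit. The inducing transcripts themselves differed, by 0.73 for JUN, under the fold limit, and by 2.21 for FOS. Their part in the other differences was not tested.

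Of the related genes, the difference was 2.74 for TGFBI, 2.07 for TNXB, 2.10 for LTBP2, 1.07 for LTBP1, 3.49 for SDC1, 0.70 for LRP1, 3.10 for PTPRZ1 and 2.77 for DPP4, with the larger response in TC71. It was -1.68 for CCN3, -1.56 for EMILIN2 and -1.53 for MFAP4. The fitted value for TGFBI depends on a TC71 vehicle group at the floor, and the value for LRP1 is under the fold limit.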

How the results depend on the processing

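Of 1042 values of the 10 genes recomputed under an alternative, 1001 kept their direction and whether they were called (adjusted p and fold limit together), 18 lost the call, 17 gained it and 6 changed sign. Neither FN1, TNC nor FAP lost a call in either line under any alternative run. The 6 changes of sign were in differences not called by edgeR: the THBS1 difference of responses was 0.30, 0.31 and 0.12 without TC71 vehicle replicate 2 and TC71 doxycycline replicates 2 and 3, that of SPP1 was 0.60 without TC71 vehicle replicate 1, and the TNC difference under doxycycline was 0.01 and 0.02 without EW8 doxycycline replicate 2 and TC71 doxycycline replicate 3. With at least 10 counts required in every library, which left 6 of the 10 genes tested, 4 were called higher in TC71, 2 differed between the lines under vehicle and 1 under doxycycline. Of the 14647 genes tested under that filter, 1255 and 345 were called higher and lower in EW8 and 1362 higher in TC71. In response 966 of them differed, and 3566 and 3464 differed between the lines under vehicle and doxycycline. With no fold limit 1 member was lower in each line, and all genes called came to 4598 higher and 4618 lower in EW8, 5283 and 4295 in TC71, 4057 for the difference of responses, and 12974 and 13135 between the lines. Fitted per line, 4 of 7 tested members were called higher in TC71. Leaving out libraries gave 3 to 5 members different under vehicle. Over the left-out libraries the differences that changed sign ran from -1.30 to 0.31 for THBS1, -2.81 to 0.60 for SPP1 and -0.14 to 0.02 for TNC. The cause was not tested for the other alternatives.

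Samples with the same replicate number did not deviate together (correlations -0.03 to 0.01). That gave no sign of pairing by number, but noise in low counts could hide it, so pairing was not excluded. With a replicate block the calls went from 3112 to 2968 in EW8 and from 3355 to 3220 in TC71, and among members the VCAN difference of responses was lost (3.98, adjusted p = 0.0642). Depth limits POSTN, SPP1, VCAN and THBS1, which held from 0 to 173 counts.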
